A study of Mus musculus with 10 samples.

Results

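The 48 keratin genes of mouse measured by these arrays were followed, out of 18193 genes in all. They were taken as every gene symbol made of Krt, a number and at most 1 letter, among probe sets (groups of short probes read as 1 value) that the platform annotation gives to exactly 1 gene symbol. Between them they had 61 such probe sets, and each of the 9 genes with several was represented by its brightest probe set on average. By where each keratin is known to be made they were put into 5 simple keratins, 4 basal keratins, 13 stratified keratins, 20 hair keratins and 6 other keratins. A further probe set annotated to both Krt17 and Krt14 was not used.

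The study differentiated mouse embryonic stem cells (mESCs) of the C57BL/6 strain and asked how far 2 treatments move them towards alveolar epithelial type II cells, the surfactant-making cells of the lung. KGF is keratinocyte growth factor, a fibroblast growth factor that acts on epithelium. DCI is not spelled out in the labels and was taken here as the dexamethasone with raised cAMP of the series title. Each of the 10 conditions was 1 array. At day 8 of differentiation there was an array with KGF and a control array. At day 17 there were arrays with KGF and DCI, with DCI, with KGF and a control, and day 24 had the same 4 conditions. All 10 arrays shared the strain and the stem cell origin, and the labels name no sorting of cells, so each value was read as that of a whole culture, in which fewer cells of a type and less RNA per cell cannot be told apart.

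Keratins are the intermediate filament proteins of epithelium. A filament needs a type I and a type II keratin, which pair in equal amounts, so that partners such as Krt18 and Krt8, Krt14 and Krt5, or Krt13 and Krt4 are usually made in the same cells. Simple, single-layered epithelium, the alveolus included, uses Krt8, Krt18, Krt19 and Krt7, whereas layered epithelium has Krt5 and Krt14 in its basal cells and other pairs above them, and hair keratins belong to the hair shaft and its sheaths. In mouse the type I genes lie in a cluster on chromosome 11 and the type II genes in a cluster on chromosome 15, with the type I gene Krt18 beside Krt8 as the exception. Of the 48 genes, 24 were on chromosome 11 and 24 on chromosome 15.

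Values are log2 expression levels, so that a difference of 1 is a 2-fold difference. Levels of different genes come from different probes and were not set against each other. The median of all values on the arrays was 6.67. The stem cell factor Pou5f1 lay between 3.93 and 6.24 and the type II cell product Sftpc between 4.13 and 8.03 over the 10 arrays, while the epithelial adhesion molecules Epcam and Cdh1 lay between 9.36 and 11.90 and between 9.60 and 11.31. The control array of day 8 stood apart in the gaps between 3′ and 5′ control probe sets. Its 3′ probe set of beta-actin, a measure of RNA quality, exceeded the 5′ one by 1.05, against 0.46 to 0.62 elsewhere. The gap of the spiked DapX control, which is not RNA of the cells, was 4.80 on that array, against 1.35 to 2.68 elsewhere.

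The upstream sequences of 5 simple and basal keratins are shown because these genes went different ways over the time course, Krt8 and Krt18 lower and Krt7 and Krt5 higher at day 17 than at day 8. RefSeq promoter windows of assembly GRCm38.p6 were given for 32 of the 48 genes, and the 250 bases before the annotated start are printed on the gene's strand. Capitals mark a TATA box (TATAAA), a GC box (GGGCGG) or an E-box (CACCTG), each searched on both strands. Krt8 is at chr15:102004343-102004592 (minus strand), Krt18 at chr15:102027966-102028215 (plus strand), Krt7 at chr15:101412153-101412402 (plus strand), Krt20 at chr11:99438154-99438403 (minus strand) and Krt5 at chr15:101712906-101713155 (minus strand).
Krt8: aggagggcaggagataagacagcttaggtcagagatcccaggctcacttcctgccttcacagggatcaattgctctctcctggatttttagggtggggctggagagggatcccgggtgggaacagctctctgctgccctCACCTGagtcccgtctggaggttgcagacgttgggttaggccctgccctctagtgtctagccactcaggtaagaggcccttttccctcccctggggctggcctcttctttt
Krt18: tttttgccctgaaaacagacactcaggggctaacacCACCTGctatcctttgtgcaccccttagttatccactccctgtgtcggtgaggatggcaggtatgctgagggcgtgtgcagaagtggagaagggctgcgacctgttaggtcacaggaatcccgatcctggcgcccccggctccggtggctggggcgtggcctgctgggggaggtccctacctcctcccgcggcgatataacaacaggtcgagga
Krt7: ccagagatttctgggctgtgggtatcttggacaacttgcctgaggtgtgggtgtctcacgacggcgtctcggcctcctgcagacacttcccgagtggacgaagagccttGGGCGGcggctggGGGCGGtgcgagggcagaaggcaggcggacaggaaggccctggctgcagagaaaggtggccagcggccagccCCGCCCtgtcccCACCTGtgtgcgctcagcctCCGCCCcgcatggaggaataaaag
Krt20: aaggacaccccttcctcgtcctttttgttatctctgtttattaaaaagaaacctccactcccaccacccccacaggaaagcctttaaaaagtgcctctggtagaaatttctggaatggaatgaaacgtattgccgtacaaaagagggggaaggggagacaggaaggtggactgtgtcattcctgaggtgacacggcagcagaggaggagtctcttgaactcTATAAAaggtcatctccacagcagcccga
Krt5: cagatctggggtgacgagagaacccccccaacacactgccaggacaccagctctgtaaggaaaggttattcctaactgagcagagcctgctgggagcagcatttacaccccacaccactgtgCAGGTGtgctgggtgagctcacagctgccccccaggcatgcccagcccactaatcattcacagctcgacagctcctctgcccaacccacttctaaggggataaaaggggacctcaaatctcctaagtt

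The letters TATAAA were found in 16 of 33 keratin windows (48.5%), against 12.4% of 32851 windows of the same length. Of those 16, 12 were among the 15 windows of hair keratins and 3 among the 9 of stratified keratins. Among the 4 windows of simple keratins only that of Krt20 had it, 29 bases before the start, and neither of the 2 basal keratin windows did. The GC box, which Sp1-family factors bind, was in 2 of 33 keratin windows (6.06%), against 32.7% of all windows, and 4 of its matches were in the Krt7 window. An E-box was in 11 keratin windows (33.3%), against 17.2% of all windows, with 1 match each in Krt8, Krt18, Krt7 and Krt5. A glucocorticoid receptor half-site (TGTTCT) was in 6 keratin windows (18.2%), against 16.1% of all windows. The AP-1 letters TGANTCA were in 2 keratin windows (6.06%), both of Krt13, against 6.75% of all windows. The Krt7 window held 16 CpG dinucleotides, Krt18 12, Krt20 5, Krt8 3 and Krt5 2, against a median of 6 over all windows. These matches describe letters and not binding sites.

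Of the 48 keratins, 17 (35.4%) reached the median of all values on at least 1 array, against 58.4% of all genes. They comprised all 5 simple and all 4 basal keratins, 5 of the 13 stratified, 3 of the 6 other and 0 of the 20 hair keratins. On the day 8 arrays 5 keratins with KGF and 4 in the control were at or above that median. At day 17 the numbers were 14 with KGF and DCI and 13 on each of the other 3 arrays. At day 24 they were 17 with KGF and DCI, 16 with DCI, 15 with KGF and 16 in the control. The 20 hair keratins lay between 2.39 and 6.48 (median 4.22), and none of them spanned more than 0.93 over the 10 arrays. In all, 22 keratins passed the test in a comparison and are given by array below. The other 26 lay between 2.39 and 6.48, and each spanned between 0.20 and 1.12. Of these, 17 were hair keratins, 6 were stratified (Krt12, Krt2, Krt76, Krt77, Krt78 and Krt79) and 3 were other keratins (Krt222, Krt24 and Krt88).

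**Figure D1:**
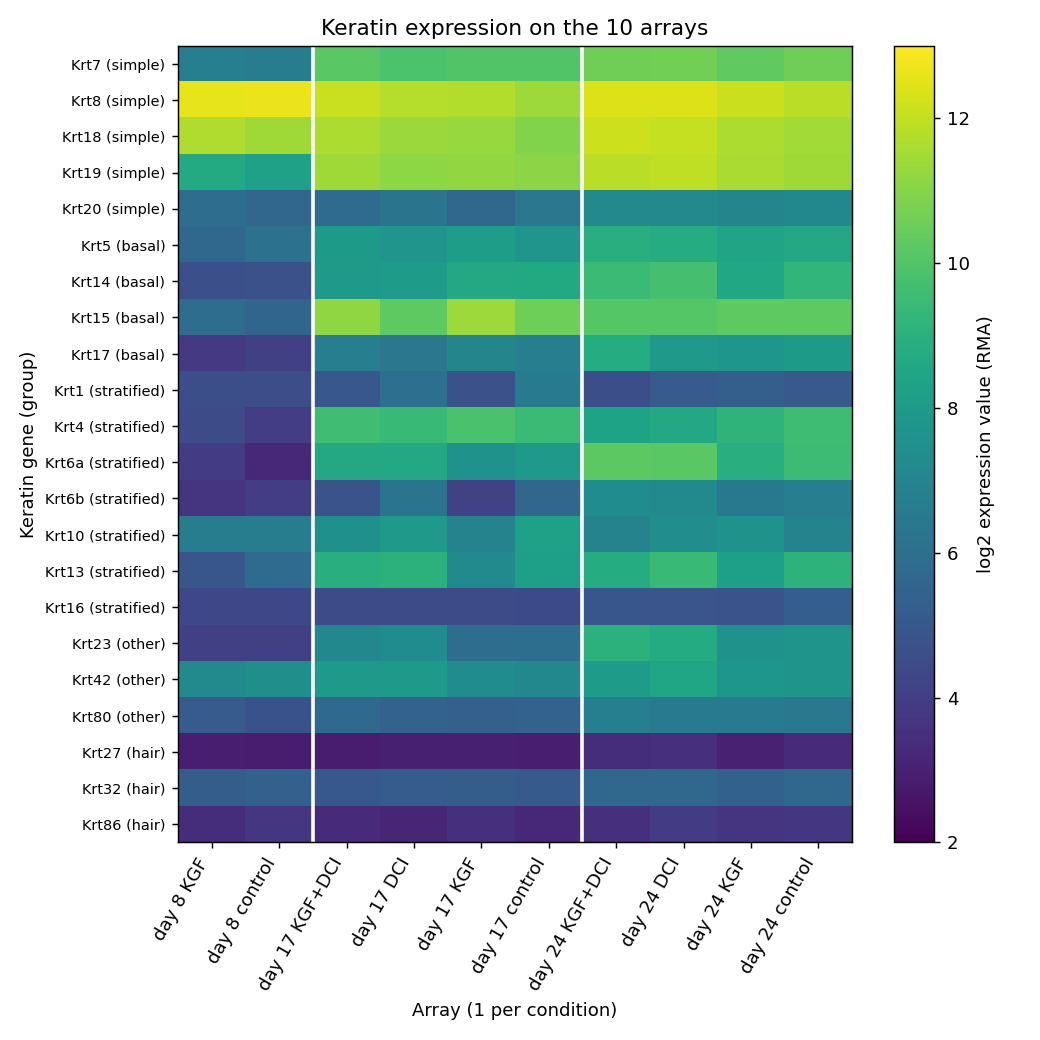
Log2 expression level (colour) of the 22 keratins given by array, in rows by keratin group, on each of the 10 arrays in columns by day and treatment. Read along each row, the 4 basal keratins and Krt4, Krt13 and Krt6a are lower on both day 8 arrays than on all 8 later arrays, and both day 8 arrays are the highest for Krt8. Colours of different rows come from different probes.

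The first question was how keratins differed between days. Between days 8 and 17 the simple keratins split, with Krt7 and Krt19 higher at day 17 and Krt8 and Krt18 lower, and all 4 basal keratins were higher. Stratified keratins of mucosal type, Krt4 and Krt13, and the wound keratin Krt6a were higher too. The test was an additive linear model in limma fitted to the 10 arrays with day, KGF and DCI as terms, at an adjusted p under 0.05 over 18193 genes. It called 16 of the 48 keratins between day 17 and day 8, 14 higher and 2 lower at day 17, against 42.4% of all genes, of which 3891 were higher and 3822 lower. No day 8 array had DCI, so every difference between day 17 and day 8 from this model is that for cultures without DCI. The median difference was 0.05 over the keratins and −0.02 over all genes. By group, 4 of 5 simple, 4 of 4 basal, 6 of 13 stratified, 0 of 20 hair and 2 of 6 other keratins passed. With single arrays and no label saying that arrays came from separate cultures, p-values measure only the spread of these arrays around additive effects.

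Between day 24 and day 17 the test called 20 of the 48 keratins, 18 higher and 2 lower at day 24, against 37.3% of all genes, of which 2686 were higher and 4092 lower. The median difference was 0.23 over the keratins and −0.01 over all genes. All 5 simple keratins were higher at day 24, as were 3 of 4 basal, 4 of 13 stratified, 3 of 20 hair and 3 of 6 other keratins, while Krt15 and Krt4 were lower. Across both steps, 10 keratins rose at each (Krt5, Krt6a, Krt6b, Krt7, Krt13, Krt14, Krt17, Krt19, Krt23 and Krt80). In the model Krt8 and Krt18 fell and then rose, and Krt15 and Krt4 rose and then fell. Arrays of days 17 and 24 overlapped for each of these genes, and for Krt18 those of days 8 and 17 did too. Krt1 and Krt10 passed at the first step only, and Krt16, Krt20, Krt27, Krt32, Krt42 and Krt86 at the second step only. The day 8 levels of the basal and stratified keratins other than Krt10, and of Krt23 and Krt80, lay in the range that the hair keratins had on these arrays, and the deposited values carry no detection call, so no fold is given for them. Passing at 1 step and not at the other was not tested as a difference between the steps.

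**Figure D2:**
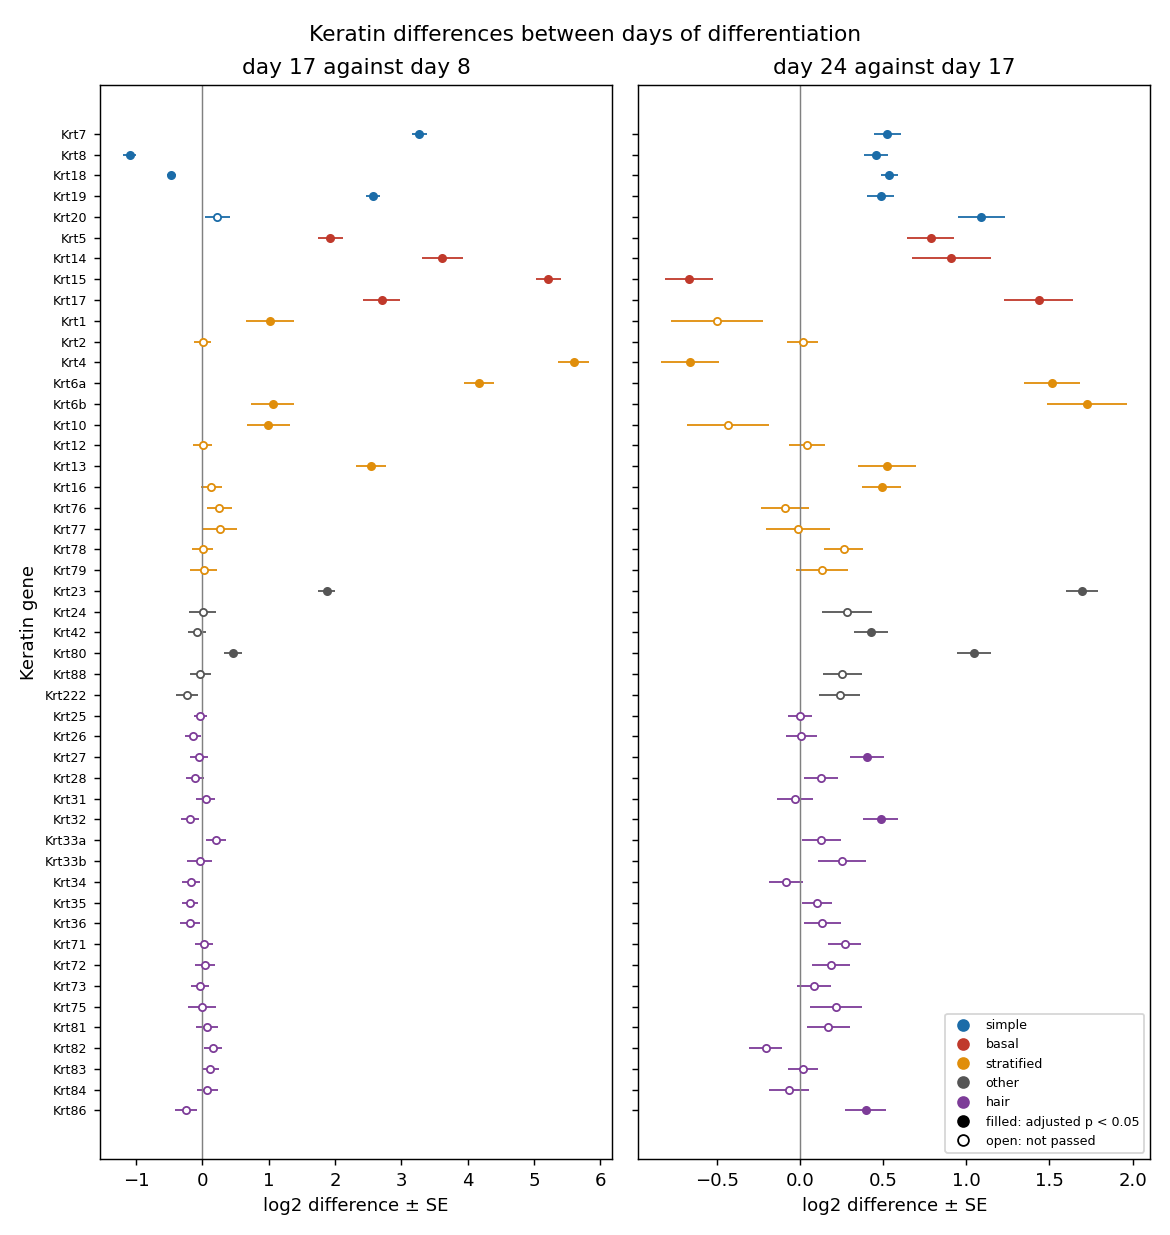
Log2 differences between days from the additive model for all 48 keratins, coloured by keratin group, with day 17 minus day 8 and day 24 minus day 17 in panels whose scales differ. Bars are standard errors of the moderated fit, and filled points passed the test. Krt4, at 5.60, and Krt15, at 5.21, lie furthest to the right in the first step and are the only ones called lower in the second.

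Krt8, the type II keratin of simple epithelium, was highest at day 8. It read 12.58 with KGF and 12.70 in the control. At day 17 it read 12.09 with KGF and DCI, 11.79 with DCI, 11.72 with KGF and 11.37 in the control, and at day 24 12.43 with KGF and DCI, 12.41 with DCI, 12.10 with KGF and 11.88 in the control. Both day 8 arrays lay above all 8 later arrays. The difference between day 17 and day 8 was −1.10 ± 0.10 (SE; adjusted p = 5.46e-06), or 2.14-fold lower at day 17, and that between day 24 and day 17 was 0.46 ± 0.07 (adjusted p = 6.93e-04).

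Krt18, the type I partner of Krt8, passed in the same directions. At day 8 it read 11.67 with KGF and 11.42 in the control. Its values were 11.64 with KGF and DCI, 11.35 with DCI, 11.29 with KGF and 10.93 in the control at day 17, and 12.18 with KGF and DCI, 12.03 with DCI, 11.66 with KGF and 11.48 in the control at day 24. The control of day 17 was the lowest of the 10 arrays, and the 2 day 24 arrays with DCI were the highest. Unlike for Krt8, the arrays of days 8 and 17 overlapped, with 11.64 with KGF and DCI at day 17 above 11.42 in the day 8 control. Its differences were −0.47 ± 0.07 between day 17 and day 8 (adjusted p = 2.45e-04) and 0.54 ± 0.05 between day 24 and day 17 (adjusted p = 2.90e-05).

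Krt19 is a type I keratin of simple ducts and glands that also occurs in some basal layers. Its day 8 levels were 8.74 with KGF and 8.31 in the control. They were 11.44 with KGF and DCI, 11.15 with DCI, 11.22 with KGF and 11.10 in the control at day 17, and 11.86 with KGF and DCI, 11.94 with DCI, 11.61 with KGF and 11.44 in the control at day 24. All 8 later arrays lay above both day 8 arrays. Krt19 was 5.95-fold higher at day 17 than at day 8 (log2 difference 2.57 ± 0.11, adjusted p = 2.24e-08), and its difference between day 24 and day 17 was 0.49 ± 0.08 (adjusted p = 9.88e-04).

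Krt7, a type II keratin of simple and glandular epithelium that includes the alveolar lining, lay near the median of all values at day 8, at 6.77 with KGF and 6.65 in the control. Krt7 read 10.17 with KGF and DCI, 9.88 with DCI, 10.02 with KGF and 10.02 in the control at day 17, and 10.60 with KGF and DCI, 10.66 with DCI, 10.34 with KGF and 10.59 in the control at day 24. The day 8, day 17 and day 24 arrays did not overlap. It was 9.66-fold higher at day 17 than at day 8 (log2 difference 3.27 ± 0.11, adjusted p = 4.69e-09), and differed by 0.53 ± 0.08 between day 24 and day 17 (adjusted p = 7.41e-04).

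Krt20, a type I keratin of intestinal and urothelial surface cells, passed only at the second step. It had 5.93 with KGF and 5.63 in the control at day 8. It had 5.87 with KGF and DCI, 6.23 with DCI, 5.69 with KGF and 6.36 in the control at day 17, and 7.16 with KGF and DCI, 7.20 with DCI, 7.03 with KGF and 7.12 in the control at day 24. Only the day 24 arrays exceeded 6.67, and they lay above every earlier array. The difference between day 24 and day 17 was 1.09 ± 0.14 (adjusted p = 1.98e-04).

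Krt5 is the type II keratin of basal cells. Its levels were 5.71 with KGF and 6.13 in the control at day 8, 7.98 with KGF and DCI, 7.76 with DCI, 8.18 with KGF and 7.75 in the control at day 17, and 8.93 with KGF and DCI, 8.82 with DCI, 8.43 with KGF and 8.62 in the control at day 24. The arrays of the 3 days did not overlap. Krt5 differed by 1.93 ± 0.18 between day 17 and day 8 (adjusted p = 1.10e-05) and by 0.79 ± 0.14 between day 24 and day 17 (adjusted p = 0.00144).

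Krt14, the type I partner of Krt5, started low, at 4.67 with KGF and 4.72 in the control. It read 7.94 with KGF and DCI, 8.10 with DCI, 8.64 with KGF and 8.67 in the control at day 17, and 9.49 with KGF and DCI, 9.74 with DCI, 8.54 with KGF and 9.22 in the control at day 24. All later arrays lay above both day 8 arrays, and the KGF array of day 24 lay among those of day 17. Krt14 differed by 3.62 ± 0.31 between day 17 and day 8 (adjusted p = 5.18e-06), with 0.91 ± 0.24 between day 24 and day 17 (adjusted p = 0.0120). The probe sets used for Krt14, Krt4 and Krt42 are of a kind that can pick up related genes. Of the 2 other Krt14 probe sets, 1 gave 2.76 and the other 0.48 (adjusted p = 0.102) for day 17 against day 8. Without the DCI array of day 24 the second difference was 0.74 (adjusted p = 0.0517).

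Krt15, a type I keratin kept in basal and stem-like cells of layered epithelium, had 5.95 with KGF and 5.57 in the control at day 8. It had 11.19 with KGF and DCI, 10.27 with DCI, 11.41 with KGF and 10.57 in the control at day 17, and 10.11 with KGF and DCI, 10.09 with DCI, 10.29 with KGF and 10.28 in the control at day 24. The 2 day 17 arrays with KGF were the highest of all, and all 4 day 24 arrays lay below them. The KGF and control arrays of day 24 lay slightly above the DCI array of day 17. With KGF, day 24 read 10.29 against 11.41, and 10.11 against 11.19 with DCI added. Without KGF, day 24 read 10.28 against 10.57, and 10.09 against 10.27 with DCI. The KGF by day term for Krt15, given below, did not pass. Krt15 differed by 5.21 ± 0.19 between day 17 and day 8 (adjusted p = 7.50e-09), and fell by 0.66 between day 17 and day 24 (adjusted p = 0.00439).

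Krt17, a type I keratin of embryonic and stressed layered epithelium, read 3.83 with KGF and 4.08 in the control at day 8. Krt17 levels were 6.70 with KGF and DCI, 6.34 with DCI, 7.02 with KGF and 6.69 in the control at day 17, and 8.82 with KGF and DCI, 7.90 with DCI, 7.80 with KGF and 7.98 in the control at day 24. The 3 days did not overlap, and the day 24 array with both treatments was the highest. Its differences were 2.70 ± 0.27 between day 17 and day 8 (adjusted p = 1.73e-05) and 1.44 ± 0.21 between day 24 and day 17 (adjusted p = 4.11e-04). A dimmer second probe set of the gene gave 0.12 (adjusted p = 0.694) and 0.24 (adjusted p = 0.248).

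**Figure D3:**
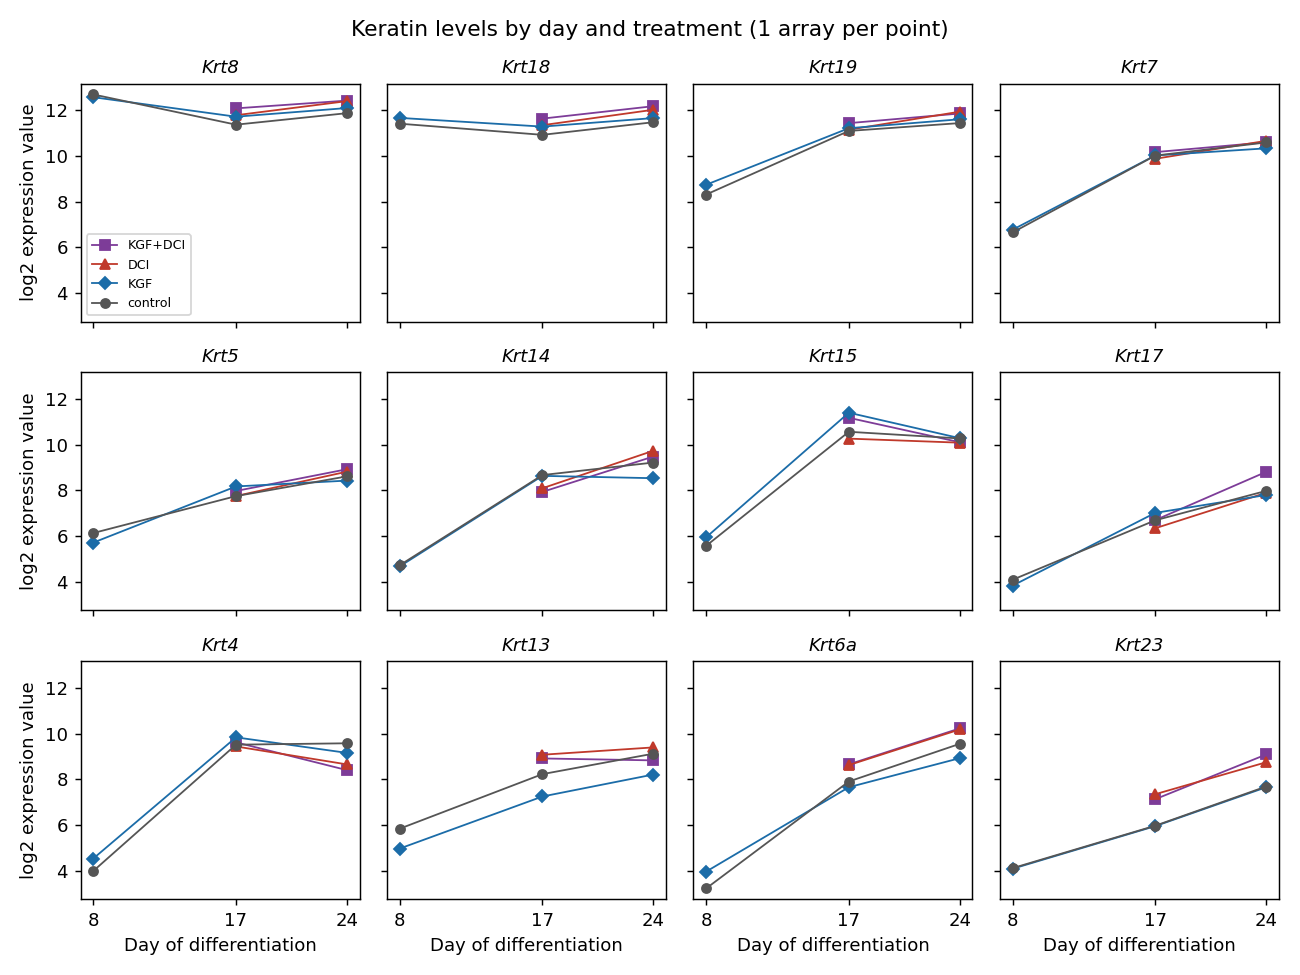
Log2 expression level by day of differentiation (8, 17, 24) for 12 keratins, with 1 point per array coloured by treatment and lines joining arrays of a treatment. Krt8 is highest at day 8, Krt7, Krt5 and Krt17 step up at each day, and for Krt15 the 2 arrays with KGF at day 17 are the highest. Krt4 is lower at day 24 than at day 17 in the 3 treated conditions, and in the control it reads 9.58 at day 24 and 9.52 at day 17.

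Krt4, the type II keratin of the suprabasal layers of oesophagus and other mucosa, had low readings at day 8. Its levels were 4.53 with KGF and 3.98 in the control at day 8, 9.62 with KGF and DCI, 9.44 with DCI, 9.84 with KGF and 9.52 in the control at day 17, and 8.40 with KGF and DCI, 8.65 with DCI, 9.16 with KGF and 9.58 in the control at day 24. The 2 day 24 arrays with DCI were lower than every other array of days 17 and 24. Krt4 differed by 5.60 ± 0.23 between day 17 and day 8 (adjusted p = 2.05e-08), and fell by 0.66 between day 17 and day 24 (adjusted p = 0.0134). The second of these was −0.33 in its other probe set (adjusted p = 0.185), and −0.49 with the mean of both probe sets (adjusted p = 0.0617). Without the day 17 array with KGF and DCI it was −0.55 (adjusted p = 0.0505).

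Krt13, the type I partner of Krt4 in mucosa, read 4.96 with KGF and 5.83 in the control at day 8. It read 8.91 with KGF and DCI, 9.08 with DCI, 7.25 with KGF and 8.23 in the control at day 17, and 8.83 with KGF and DCI, 9.40 with DCI, 8.21 with KGF and 9.12 in the control at day 24. All later arrays lay above both day 8 arrays, and days 17 and 24 overlapped. The difference between day 17 and day 8 was 2.54 ± 0.23 (adjusted p = 7.62e-06). That between day 24 and day 17 was 0.52 ± 0.17 (adjusted p = 0.0373), and its other probe sets gave 0.04 (adjusted p = 0.851) and 0.47 (adjusted p = 0.194). This second difference missed the threshold when the control, KGF or DCI array of day 17 or the KGF or control array of day 24 was left out (adjusted p between 0.0917 and 0.133).

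Krt6a, a type II keratin of wounded and fast-growing layered epithelium, had 3.95 with KGF and 3.22 in the control at day 8. It had 8.66 with KGF and DCI, 8.62 with DCI, 7.65 with KGF and 7.90 in the control at day 17, and 10.23 with KGF and DCI, 10.19 with DCI, 8.93 with KGF and 9.56 in the control at day 24. The arrays of the 3 days did not overlap, and within both later days the DCI arrays were the highest. Krt6a differed by 4.17 ± 0.22 between day 17 and day 8 (adjusted p = 1.32e-07), with 1.52 ± 0.17 between day 24 and day 17 (adjusted p = 7.07e-05). Its other 2 probe sets gave 1.33 and 1.39 for the first step.

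Krt6b, a close relative of Krt6a, read 3.65 with KGF and 3.99 in the control at day 8. Krt6b had 4.82 with KGF and DCI, 6.24 with DCI, 4.14 with KGF and 5.65 in the control at day 17, and 7.33 with KGF and DCI, 7.24 with DCI, 6.45 with KGF and 6.73 in the control at day 24. Every day 24 array lay above every earlier one, and at day 17 both arrays with KGF lay below both without it. Its differences were 1.06 ± 0.32 between day 17 and day 8 (adjusted p = 0.0210) and 1.73 ± 0.24 between day 24 and day 17 (adjusted p = 3.49e-04). Krt16, the type I partner of the Krt6 keratins, stayed below the median of all values, with 4.40 with KGF and 4.38 in the control at day 8, 4.55 with KGF and DCI, 4.52 with DCI, 4.50 with KGF and 4.47 in the control at day 17, and 4.95 with KGF and DCI, 4.91 with DCI, 4.84 with KGF and 5.29 in the control at day 24. It differed by 0.49 ± 0.12 between day 24 and day 17 (adjusted p = 0.00717).

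Krt1 and Krt10 pair in the suprabasal epidermis. Krt1 had 4.65 with KGF and 4.60 in the control at day 8, 4.97 with KGF and DCI, 6.01 with DCI, 4.71 with KGF and 6.48 in the control at day 17, and 4.65 with KGF and DCI, 5.15 with DCI, 5.33 with KGF and 5.05 in the control at day 24, with the control and DCI arrays of day 17 the highest. Krt10 had 6.67 with KGF and 6.66 in the control at day 8, 7.51 with KGF and DCI, 7.92 with DCI, 6.92 with KGF and 8.28 in the control at day 17, and 6.93 with KGF and DCI, 7.44 with DCI, 7.64 with KGF and 6.92 in the control at day 24, and the control array of day 17 was its highest. Day 17 differed from day 8 by 1.01 ± 0.36 for Krt1 (adjusted p = 0.0447). For Krt10 the same difference was 0.99 ± 0.33 (adjusted p = 0.0311). Without the day 8 control array, the one that stood apart in RNA quality, 12 in place of 16 keratins passed between day 17 and day 8. The 4 lost were Krt1 (0.61, adjusted p = 0.383), Krt10 (0.79, adjusted p = 0.225), Krt6b (0.84, adjusted p = 0.184) and Krt80 (0.34, adjusted p = 0.166). The same 4 were lost without the day 17 control array, at adjusted p of 0.200, 0.145, 0.101 and 0.0832. Krt1 also missed the threshold without the DCI array of day 17 or the KGF and DCI, DCI or KGF array of day 24 (adjusted p up to 0.0703), and Krt10 without the KGF array of day 8 (adjusted p = 0.0674).

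Among the other keratins, Krt23, a type I keratin of glandular epithelium, had 4.08 with KGF and 4.10 in the control at day 8. It had 7.13 with KGF and DCI, 7.35 with DCI, 5.95 with KGF and 5.96 in the control at day 17, and 9.09 with KGF and DCI, 8.75 with DCI, 7.65 with KGF and 7.68 in the control at day 24. The arrays with DCI were the highest of their day, and those of day 17 lay below every day 24 array. Krt23 differed by 1.87 ± 0.13 between day 17 and day 8 (adjusted p = 9.66e-07) and by 1.70 ± 0.10 between day 24 and day 17 (adjusted p = 9.44e-07).

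Krt80, a type II keratin of differentiating epithelium, had 5.17 with KGF and 4.78 in the control at day 8, 5.74 with KGF and DCI, 5.48 with DCI, 5.38 with KGF and 5.47 in the control at day 17, and 6.75 with KGF and DCI, 6.51 with DCI, 6.58 with KGF and 6.42 in the control at day 24. Every day 24 array was above every earlier one. The differences were 0.46 ± 0.14 between day 17 and day 8 (adjusted p = 0.0179) and 1.05 ± 0.10 between day 24 and day 17 (adjusted p = 3.10e-05), and the first was 0.12 (adjusted p = 0.519) after a second quantile normalization. Krt42, a type I keratin whose human counterpart is a pseudogene, read 7.23 with KGF and 7.497 in the control at day 8, 7.93 with KGF and DCI, 7.89 with DCI, 7.36 with KGF and 7.14 in the control at day 17, and 8.10 with KGF and DCI, 8.49 with DCI, 7.77 with KGF and 7.69 in the control at day 24. It differed by 0.43 ± 0.10 between day 24 and day 17 (adjusted p = 0.00755), whereas its other probe set gave 0.02 (adjusted p = 0.927).

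The 3 hair keratins that passed between day 24 and day 17 all stayed below the median of all values. Krt27, of the inner root sheath, had 2.94 with KGF and 2.89 in the control at day 8, 2.84 with KGF and DCI, 2.95 with DCI, 2.95 with KGF and 2.94 in the control at day 17, and 3.45 with KGF and DCI, 3.49 with DCI, 3.004 with KGF and 3.36 in the control at day 24, and differed by 0.40 ± 0.10 (adjusted p = 0.0113). Krt32, of the hair cuticle, had 5.24 with KGF and 5.39 in the control at day 8, 5.03 with KGF and DCI, 5.19 with DCI, 5.22 with KGF and 5.13 in the control at day 17, and 5.71 with KGF and DCI, 5.68 with DCI, 5.44 with KGF and 5.69 in the control at day 24, and differed by 0.49 ± 0.10 (adjusted p = 0.00449). Krt86, of the hair cortex, had 3.46 with KGF and 3.74 in the control at day 8, 3.34 with KGF and DCI, 3.18 with DCI, 3.54 with KGF and 3.21 in the control at day 17, and 3.51 with KGF and DCI, 3.92 with DCI, 3.70 with KGF and 3.73 in the control at day 24, and differed by 0.40 ± 0.12 (adjusted p = 0.0287). The Krt86 difference missed the threshold when the DCI or control array of day 17 or the DCI, KGF or control array of day 24 was left out (adjusted p between 0.0531 and 0.101). Genes of the hair follicle and the keratin-associated proteins of hair, 12 measured of 14 listed, passed in 3 cases between day 17 and day 8, where Tchh rose by 0.84 and Hoxc13 by 0.61 and Msx2 fell by 2.08. Between day 24 and day 17 1 of them passed, Lef1, which fell by 0.82. Of all genes 42.4% passed in the first of these steps and 37.3% in the second. Their median level lay between 3.66 and 4.15 over the 10 arrays.

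Other genes of layered epithelium were read beside the keratins. Of all genes 42.4% passed between day 17 and day 8 and 37.3% between day 24 and day 17. Of 10 markers of basal cells measured (11 listed), 9 rose between day 8 and day 17 with a median difference of 1.49, among them the channel Aqp3 (2.26), the basal cell transcription factor Trp63 (2.21), the hemidesmosome collagen Col17a1 (2.13) and Dapl1 (1.58). Between day 17 and day 24 6 rose, led by the laminin chains Lama3 (1.53) and Lamb3 (1.32) and by Sfn (1.24), and Ngfr fell by 0.52. Cornified envelope genes, which build the hardened shell of squamous cells, rose in 8 of 14 cases (15 listed) between day 8 and day 17, with 4.11 for Calml3, 4.06 for Krtdap, 3.45 for Sprr1a and 1.94 for Sprr3, and Tgm3 fell by 0.34. In the second step 12 of these 14 rose, led by Sprr1a (1.42), Cnfn (1.26), Krtdap (1.01) and Sprr1b (0.90). Desmosome genes and keratin linkers, which anchor the filaments, passed in 12 of 17 cases (18 listed) between day 17 and day 8, 7 higher and 5 lower, with Ppl at 1.91 and Pkp1 at 1.61 against Dsp at −1.85 and Dsc2 at −1.85. Between day 24 and day 17 7 passed, 6 of them higher.

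Genes of epithelium in general rose in 15 of 20 cases (21 listed) between day 8 and day 17 and fell in 2, with Ehf at 5.11, Cldn3 at 1.94, Esrp2 at 1.72 and Elf3 at 1.67. Between day 17 and day 24 12 of the 20 rose, where Cldn4 had 1.27 and Elf3 1.15. Of 13 genes of other intermediate filaments, 5 rose between day 8 and day 17, the neuronal Nefm (2.17), Nefl (1.92) and Ina (1.504) among them, and 2 fell, of which the lamin Lmnb1 was one (−1.02). In the second step 1 rose and 3 fell. Markers of other cell types moved between the same days. All counts of these lists stand against 42.4% of all genes that passed in the first step and 37.3% in the second. Macrophage genes rose in 16 of 16 cases between day 8 and day 17, genes of visceral endoderm and liver passed in 11 of 16 (8 higher and 3 lower), genes of mesenchyme and fibroblasts in 14 of 14 (8 higher and 6 lower), and heart and smooth muscle genes in 7 of 11 (4 higher and 3 lower). Of the pluripotency genes 5 of 10 passed (3 higher and 2 lower), of the alveolar type II genes 4 of 9 and of the airway genes 4 of 9, all higher. Between day 24 and day 17 9 of 16 macrophage genes passed (1 higher and 8 lower), 4 of 16 genes of visceral endoderm and liver (1 higher and 3 lower), 9 of 14 mesenchyme genes (6 higher and 3 lower) and 5 of 11 heart and smooth muscle genes (3 higher and 2 lower). In that step 5 of 10 pluripotency genes passed (1 higher and 4 lower), 4 of 9 alveolar type II genes (3 higher and 1 lower) and 5 of 9 airway genes, all higher. The part of these other cells in the keratin differences was not tested.

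The next question was how DCI moved the keratins. Cultures with DCI had more of the simple keratin pair Krt8 and Krt18, of Krt23, of the stratified keratins Krt6a and Krt13 and of Krt42. These 6 of the 48 keratins passed, all higher with DCI, against 15.4% of all genes, of which 1322 were higher and 1471 lower, so the keratins' share was no larger than that of all genes. None of the 4 basal and none of the 20 hair keratins passed, and 12 of the 48 had an unadjusted p under 0.05, as did 5012 of the 18193 genes. The median DCI difference was 0.04 over the keratins and −0.01 over all genes. All 4 pairs of arrays with and without DCI were higher with it for 11 of the 48 keratins, these 6 included, and for 17.2% of all genes. All 6 had also risen between day 17 and day 24.

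Krt23 had the largest DCI difference, 1.27 ± 0.10 (SE; adjusted p = 1.89e-05), or 2.40-fold. Its 4 pairs of arrays that differed only in DCI gave 1.18 with KGF and 1.38 without it at day 17, and 1.44 with KGF and 1.06 without it at day 24. Krt18 was higher by 0.46 ± 0.05 (adjusted p = 2.07e-04), with pairs of 0.35 with KGF and 0.42 without it at day 17, and 0.52 with KGF and 0.55 without it at day 24. Krt8 was higher by 0.41 ± 0.07 (adjusted p = 0.00360), with pairs of 0.37 with KGF and 0.41 without it at day 17, and 0.33 with KGF and 0.53 without it at day 24. For all 3 genes both DCI arrays of a day lay above both arrays without DCI.

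Krt6a was higher by 0.91 ± 0.17 with DCI (adjusted p = 0.00439), its pairs being 1.00 with KGF and 0.72 without it at day 17, and 1.31 with KGF and 0.63 without it at day 24. Krt13 was higher by 0.85 ± 0.17 (adjusted p = 0.00818), its pairs being 1.67 with KGF and 0.85 without it at day 17, and 0.62 with KGF and 0.27 without it at day 24. The Krt13 arrays with and without DCI overlapped at day 24, and the mean of its probe sets gave 0.62 (adjusted p = 0.0526). Krt42 was higher by 0.61 ± 0.10 (adjusted p = 0.00248), with pairs of 0.56 with KGF and 0.75 without it at day 17, and 0.33 with KGF and 0.80 without it at day 24, but its other probe set gave 0.02 (adjusted p = 0.947).

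Krt19, the simple keratin next nearest to the threshold, had a DCI difference of 0.26 ± 0.08 (adjusted p = 0.0582). Krt4 had −0.50 ± 0.17 (adjusted p = 0.0870) and Krt6b 0.67 ± 0.24 (adjusted p = 0.0946). With each matched pair as a block, a fit chosen after seeing the data, Krt6b (0.67 ± 0.10, adjusted p = 0.00445) and Krt15 (−0.22 ± 0.05, adjusted p = 0.0225) passed beside the 6. Krt7 had 0.09 ± 0.08, with a 95% interval of −0.10 to 0.27, and Krt5 had 0.13 ± 0.14, with an interval of −0.18 to 0.44. Both intervals hold effects of either sign.

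**Figure D4:**
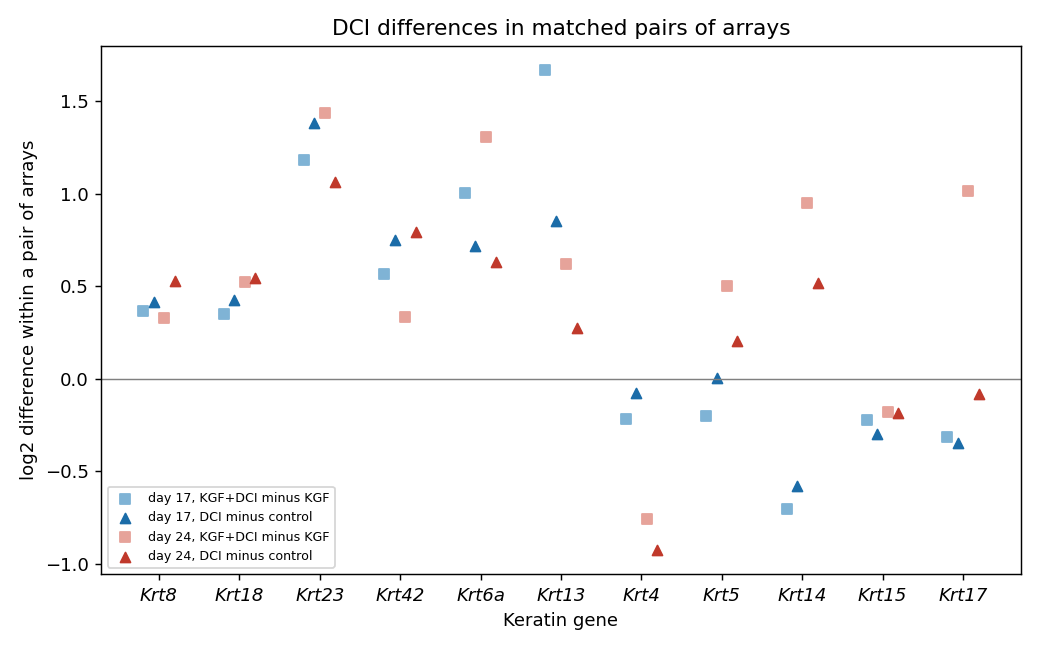
Log2 difference within each of the 4 matched pairs of arrays with and without DCI, for 11 keratins, by day (17 blue, 24 red) and by whether KGF was present. All 4 pairs are above 0 for Krt8, Krt18, Krt23, Krt42, Krt6a and Krt13, as for 17.2% of all genes, while the Krt14 pairs are below 0 at day 17 and above 0 at day 24.

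The gene lists are set against 15.4% of all genes that passed for DCI. Among general epithelial genes, 8 of 20 rose with DCI and 1 fell, with Elf3 at 0.72, Epcam at 0.56, Cldn6 at −0.50 and Rab25 at 0.50. Of the desmosome genes and linkers, Dsp (0.28) and Dsc2 (0.29) rose and Pkp4 fell by 0.33, out of 17. Of the basal cell markers only Aqp3 passed (0.52), of the 14 cornified envelope genes 0 passed (4 with an unadjusted p under 0.05), of the 12 hair follicle genes 0 (0 at an unadjusted p under 0.05), and of the other intermediate filaments Nefl (−0.64) and Nes (−0.57) fell. Markers of other cell types moved with DCI as well. Macrophage genes were lower in 15 of 16 cases, and their median level was 8.49 with KGF and DCI, 8.63 with DCI, 10.15 with KGF and 10.04 in the control at day 17. At day 24 it was 7.49 with KGF and DCI, 7.91 with DCI, 10.03 with KGF and 10.34 in the control. Genes of visceral endoderm and liver were higher in 6 of 16 cases, with Fga at 1.499 and Fgb at 1.49, and airway genes in 4 of 9, with Muc5b at 2.66, Agr2 at 2.49, Scgb1a1 at 2.40 and Muc5ac at 1.67. Of the mesenchyme genes 5 of 14 passed (4 higher), of the heart and smooth muscle genes 4 of 11 (1 higher), of the alveolar type II genes 2 of 9 (Napsa 1.01, Etv5 −0.40) and of the pluripotency genes 1 of 10 (Klf4 0.53). Gaps between 3′ and 5′ control probe sets differed with DCI too. That of beta-actin was larger with DCI at both days, and that of the spiked DapX larger at day 17 and smaller at day 24. The beta-actin gap between 3′ and 5′ probe sets was 0.61 with KGF and DCI, 0.62 with DCI, 0.48 with KGF and 0.52 in the control at day 17, and 0.54 with KGF and DCI, 0.59 with DCI, 0.51 with KGF and 0.49 in the control at day 24. The DapX gap was 2.49 with KGF and DCI, 2.68 with DCI, 1.82 with KGF and 1.61 in the control at day 17, and at day 24 it was 1.43 with KGF and DCI, 1.35 with DCI, 1.496 with KGF and 1.67 in the control. The part of these cells, of RNA quality and of sample processing in the keratin differences was not tested.

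Whether the DCI effect differed by day was tested by an interaction term in the 8 arrays of days 17 and 24. Of 48 keratins 1 passed, Krt14, against 2.51% of all genes, and 8 had an unadjusted p under 0.05, as did 2912 of the 18193 genes. The Krt14 DCI differences were −0.70 with KGF and −0.58 without it at day 17, and 0.95 with KGF and 0.52 without it at day 24. The change in effect between day 24 and day 17 was 1.37 ± 0.19 (adjusted p = 0.00532). It missed the threshold without a mean trend in the variances (adjusted p = 0.0608) and with the mean of the gene's probe sets (1.07, adjusted p = 0.0656). Krt17 gave 0.80 ± 0.28 (adjusted p = 0.197), Krt5 0.45 ± 0.18 (adjusted p = 0.253), Krt13 −0.81 ± 0.23 (adjusted p = 0.115) and Krt4 −0.69 ± 0.22 (adjusted p = 0.146). Beside Krt14, the basal cell markers Lama3 (1.34) and Lamb3 (0.72) passed the same test out of 10. Macrophage genes passed in 11 of 16 cases and genes of visceral endoderm and liver in 11 of 16, all with a lower DCI effect at day 24, and their part in the Krt14 difference was not tested.

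The effect of KGF was read in 5 matched pairs of arrays. No keratin passed in the additive model. Over all 10 arrays limma called 0 of 48 keratins, against 0.00550% of all genes, and 9 of the 48 had an unadjusted p under 0.05, as did 1466 of the 18193 genes. Over the 8 arrays of days 17 and 24 it again called 0 of 48, against 0.357% of all genes, with 9 at an unadjusted p under 0.05, as had 1559 of the 18193 genes. With each matched pair as a block, a fit chosen after seeing the data, 0 of 48 passed over all 10 arrays and 2 of 48 over the 8 arrays of days 17 and 24, against 1.37% of all genes. These were Krt18 (0.25 ± 0.04, adjusted p = 0.0325) and Krt13 (−0.66 ± 0.12, adjusted p = 0.0306). In the additive model Krt18 came nearest, at 0.25 ± 0.05 over all 10 arrays (adjusted p = 0.151, 95% interval 0.15 to 0.35). It was higher with KGF in 5 of 5 pairs, as were 3 of the 48 keratins (Krt18, Krt15 and Krt88) and 5.06% of all genes. Krt8 had 0.16 ± 0.06 (adjusted p = 0.574) and Krt19 0.19 ± 0.07 (adjusted p = 0.540). Krt15 had 0.43 ± 0.13 (adjusted p = 0.399).

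Krt13 had a KGF difference of −0.70 ± 0.16 over all 10 arrays (adjusted p = 0.245). It was lower with KGF in 5 of 5 pairs, as were 3 of the 48 keratins (Krt13, Krt14 and Krt72) and 5.01% of all genes. Krt6b had −0.69 ± 0.22 (adjusted p = 0.421) and Krt1 −0.60 ± 0.25 (adjusted p = 0.566). Of other epithelial genes, Ehf (0.69), Grhl2 (0.57), Spint1 (0.45) and Cdh1 (0.36) rose with KGF over the arrays of days 17 and 24, 4 of 20, against 0.357% of all genes. Dapl1 did among the basal cell markers (0.81). Over all 10 arrays none of these passed, with adjusted p of 0.0512 for Ehf, 0.161 for Grhl2, 0.136 for Spint1, 0.0842 for Cdh1 and 0.429 for Dapl1. At days 17 and 24 all of the 20 epithelial genes except Cdh3, Ovol2 and Prss8 were higher with an unadjusted p under 0.05. Of the 18193 genes 1559 had such a p in either direction. Of the other lists at days 17 and 24, 1 of 9 airway genes and 1 of 9 alveolar type II genes passed, both higher, and 0 passed of the 17 desmosome genes and linkers, 14 cornified envelope genes, 13 other intermediate filament genes, 12 hair follicle genes, 16 macrophage genes, 16 genes of visceral endoderm and liver, 14 mesenchyme genes, 11 heart and smooth muscle genes and 10 pluripotency genes. Between 0 and 5 genes of each list with 0 passed had an unadjusted p under 0.05. In the cornified envelope list these were Cnfn, Ivl, Krtdap, Lor and Sprr1b, all lower with KGF. In the list of desmosome genes and linkers they were Dsc2, Dsg2, Dsp, Eppk1 and Pkp4, all higher. Among the airway genes Agr2, Bpifa1, Cyp2f2, Foxj1, Muc5b and Scgb1a1 had such a p, all higher, and Muc5ac, Scgb3a1 and Scgb3a2 did not.

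**Figure D5:**
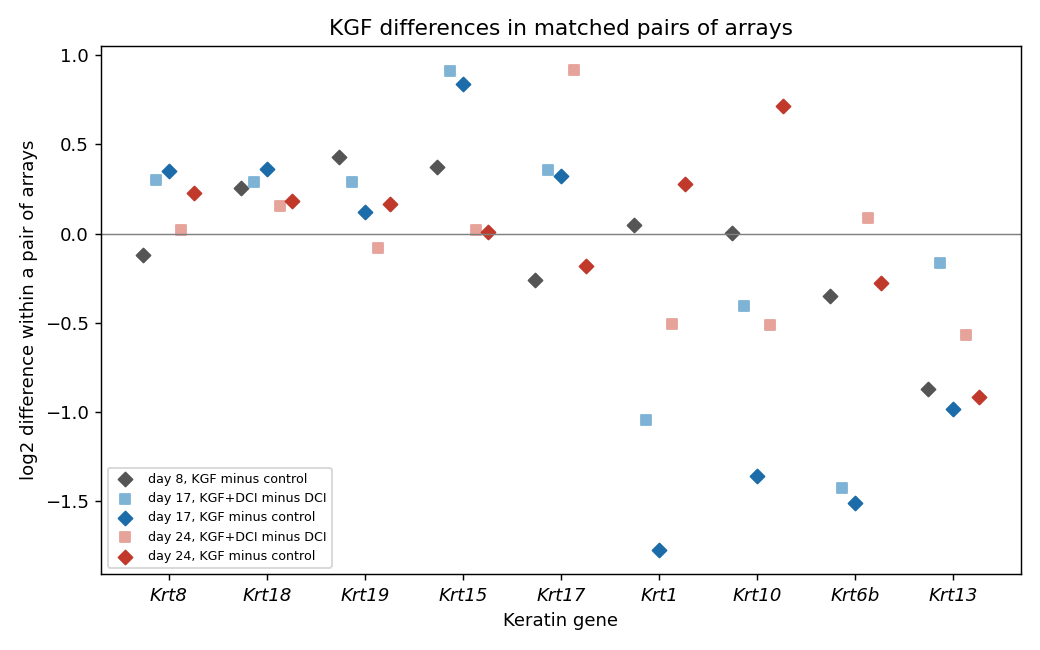
Log2 difference within each of the 5 matched pairs of arrays with and without KGF, for 9 keratins, by day (8 grey, 17 blue, 24 red). All 5 pairs are above 0 for Krt18 and Krt15, as for 5.06% of all genes, and below 0 for Krt13, as for 5.01%. For Krt15 and Krt6b the day 17 pairs stand apart from those of day 24.

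KGF differences were next compared between days 17 and 24. For the KGF by day term 0 of 48 keratins passed, against 0% of all genes, and 6 keratins had an unadjusted p under 0.05, as did 932 of the 18193 genes. The Krt15 term was −0.86 ± 0.10 (unadjusted p = 2.82e-05, adjusted p = 0.513), its KGF differences being 0.91 with DCI and 0.84 without it at day 17, and 0.02 with DCI and 0.01 without it at day 24. Krt6b had 1.37 ± 0.19 (adjusted p = 0.661) and Krt1 1.29 ± 0.34 (adjusted p = 0.944). Neither they nor Krt15 passed.

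Whether KGF and DCI together differed from the sum of each was tested by the KGF by DCI term. Here too 0 of 48 keratins passed, against 0% of all genes, and 1 keratin, Krt6a, had an unadjusted p under 0.05 (0.48 ± 0.15, adjusted p = 0.9998), as did 267 of all genes. For Krt8 the term was −0.13 ± 0.11 with a 95% interval of −0.39 to 0.14, and for Krt18 −0.05 ± 0.12 with −0.32 to 0.22. The median standard error of the term over the keratins was 0.24. Since a term as large as 0.48 did not pass, the absence of calls does not show that the effects were additive. Whether the Krt6a term is a real departure cannot be told from these arrays.

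The array with both treatments was last set against the control of the same day, with 1 array on each side and no test. At day 17, 2 of 48 keratins differed at least 2-fold, Krt23 at 1.16 and Krt1 at −1.51, against 2.93% of all genes. At day 24 2 of 48 did so, Krt23 at 1.40 and Krt4 at −1.18, against 4.75% of all genes. Krt18 differed by 0.71 at day 17 and 0.70 at day 24, and Krt8 by 0.72 at day 17 and 0.55 at day 24.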

How the data were processed

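Each of the 10 samples was 1 array of biotin-labelled total RNA. For 45101 probe sets the authors deposited expression levels on the log2 scale. RMA is named in the submitters' processing notes, and Bioconductor in the labels. RMA subtracts background, gives all arrays the same distribution and summarises the probes of a probe set, so a difference is measured against the array's other genes, and those of dim genes are understated. The RMA version, and whether the arrays were processed together, is not given in the sources used here.

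Of the probe sets, 34945 had 1 gene symbol (18193 genes), 932 had several, 9160 had none and 64 were controls. A gene was read from its brightest probe set on average, and none was filtered out. Effects were fitted with limma 3.58.1 in R 4.3.3, additive in day, KGF and DCI, with variances moderated along a mean trend and Benjamini-Hochberg adjustment over 18193 genes at a threshold of 0.05. The main model left 5 residual degrees of freedom, and each interaction model 3. Errors are standard errors, whose size the small number of arrays sets. The script was tested on simulated data. Alternatives changed the variance model, the filter on dim genes, the probe set rule, the normalization, the threshold, the arrays used and, added after seeing the data, matched pairs as blocks. Values by array are given for simple and basal keratins and for any other that passed a comparison or reached the median of all values, and up to 4 genes with the largest differences that passed are named per gene list. The members and lists were chosen with earlier results of these data known. Promoter windows and gene positions came from RefSeq tables of GRCm38.p6. The deposited files name no genome build.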

Additional observations from a re-analysis of the deposited data

Results flagged for a closer look

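Krt14 was the keratin whose DCI effect differed between days by the test of the difference itself. Its DCI effect was 1.37 ± 0.19 higher on the log2 scale at day 24 than at day 17 (SE, 8 arrays; limma, adjusted p = 0.00533), with both DCI pairs above 0 at day 24 and both below 0 at day 17. A second probe set of the gene gave 1.33 (adjusted p = 0.00390), and the other, dimmer one 0.51 (adjusted p = 0.457). The adjusted p was 0.0608 when variances were moderated without a trend and 0.0656 when the gene's probe sets were averaged (difference 1.07), so the call did not hold in either.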

How the results depend on the processing

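Leaving out each array in turn gave 6 to 8 keratins for DCI, 12 to 16 for day 17 against day 8, 18 to 22 for day 24 against day 17, 1 to 2 for DCI by day and 0 to 0 for KGF over all arrays, KGF at days 17 and 24, KGF by DCI and KGF by day. The DCI count was 11 at an adjusted p under 0.10 and 1 where a 2-fold difference was asked for in addition, which left 6 keratins for day 24 against day 17. The DCI by day count was 2 without the KGF or DCI array of day 17 or the DCI or control array of day 24. It was 0 when probe sets of a gene were averaged, and 0 when variances were moderated without a trend. In a fit with each matched pair of arrays as a block, added after seeing the data, 8 keratins passed for DCI, 0 for KGF over all arrays, 2 for KGF at days 17 and 24, 14 for day 17 against day 8 and 20 for day 24 against day 17. The other 130 recomputed counts were equal to the reported ones or within 1.5 times them. For KGF, KGF by DCI and KGF by day this means 0 against 0, which says little about stability. Single keratins were recomputed for the comparisons in which they had passed, and Krt8 and Krt18 also for KGF and KGF by DCI. Of these values 783 kept their side of the threshold and 56 kept their direction but missed it. Another 1 newly passed (Krt18 for KGF at days 17 and 24 with matched pairs as a block, adjusted p = 0.0325). Among values that had passed 0 reversed, and the direction of those that had not passed was not counted. New passes of other keratins with matched pairs as a block, Krt13 for KGF at days 17 and 24 and Krt6b and Krt15 for DCI, lie outside these counts. The cause of these changes was not tested. No replicate block was fitted, since each condition had 1 array and no replicate number. Related keratins can share probes, signals of dim keratins lie near the background, and the additive model cannot separate array noise from effects that differ between conditions.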
